A study of Mus musculus with 6 samples.

Results

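The genes described here build the acrosome, the secretory cap of the sperm head, and shape the head beneath it. They were chosen by name: 34 mouse genes, taken as every probe set whose platform symbol is exactly one of them. The array held all 34, through 62 of its 45037 probe sets that are not controls, and 18193 genes had a probe set with a single symbol. By role, 14 genes encode acrosome content, 11 were grouped as acrosome formation and 9 belong to the head cytoskeleton and its attachment to the nucleus. The formation group also holds Stx2 and Rab3a, which are genes of membrane fusion and exocytosis. RNA of whole testis from mice aged 5 weeks was hybridised to 6 Affymetrix arrays, of which 3 carried the wild-type genotype and 3 the genotype labelled Phf13 knockout. Phf13 encodes a PHD finger protein that binds methylated histone H3. The labels name neither the strain nor the allele nor the way the gene was deleted, and they do not say whether each array came from another animal.

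The acrosome forms in round spermatids, when vesicles from the Golgi apparatus fuse on the surface of the nucleus into a single cap. Its enzymes and matrix proteins are released at the egg coat. As the nucleus condenses, actin-like and calyx proteins of the perinuclear theca hold the cap in place, and SUN-domain proteins tie the nuclear envelope to the microtubules that shape the head and to the tail. Loss of several formation genes in mice gives round-headed sperm with no acrosome.

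The target gene went with the labels. Phf13 read 9.55, 9.47 and 9.56 on the wild-type arrays and 6.71, 6.60 and 6.55 on the knockout arrays on the log2 scale, a 7.5-fold lower level (limma adjusted p = 7.7e-06). Median probe sets lay between 5.22 and 5.28 on the 6 arrays. Markers of the expected cells were bright: elongating spermatid markers averaged 12.29 to 12.34 in wild type and 12.27 to 12.31 in knockout, whereas markers of the epididymis, a neighbouring organ, averaged 3.55 to 3.74 and 3.55 to 3.72. In whole tissue, fewer cells of a type and less RNA per cell cannot be told apart. The 18S ribosomal RNA control probe sets split the arrays into a set at 12.03 to 12.67 (wild type 1, wild type 2, knockout 1) and a set at 9.69 to 10.71 (wild type 3, knockout 2, knockout 3). The second set is also a run of consecutive title codes. Its 3' minus 5' signal of the actin control probe sets was 0.56 to 0.59, against 0.75 to 0.89 in the first set. The first set holds more wild-type and the second more knockout arrays, so differences over all arrays can carry part of a difference between the sets. Differences inside each set are given below for some genes and lists only. Among genes given below without them, the first and second set disagreed for Agfg1 (0 and -0.315), Dpy19l2 (0.26 and -0.185), Hyal5 (0.30 and -0.095) and Spam1 (0 and -0.28), for example.

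All 34 genes had a bright probe set in wild-type testis, and none passed the threshold for a difference. The brightest probe set of each gene, which stands for the gene below, had a wild-type mean above 7.32, the upper quartile of all wild-type means. This places the probe sets among all others and does not rank the transcripts, because probes differ in how well they bind. Of the 62 probe sets, 0 had a limma adjusted p under 0.05, against 0.0999% of all probe sets, and the smallest adjusted p was 0.193. At an unadjusted p under 0.05, 9 of the 62 probe sets were lower and 2 higher, against backgrounds of 8.31% and 6.81% of all probe sets. By gene, 3 were lower (Pcsk4, Gopc and Csnk2a2) and 2 higher (Rab3a and Cylc1) in knockout, against backgrounds of 8.72% and 8.58% of all genes. The median difference, knockout minus wild type, was -0.03 over the 34 genes and 0.01 over all 18193. The middle 90% of all genes spanned -0.30 to 0.36, and 32 of the 34 lay inside it. The exceptions were Csnk2a2 below and Cylc1 above.

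**Figure D1:**
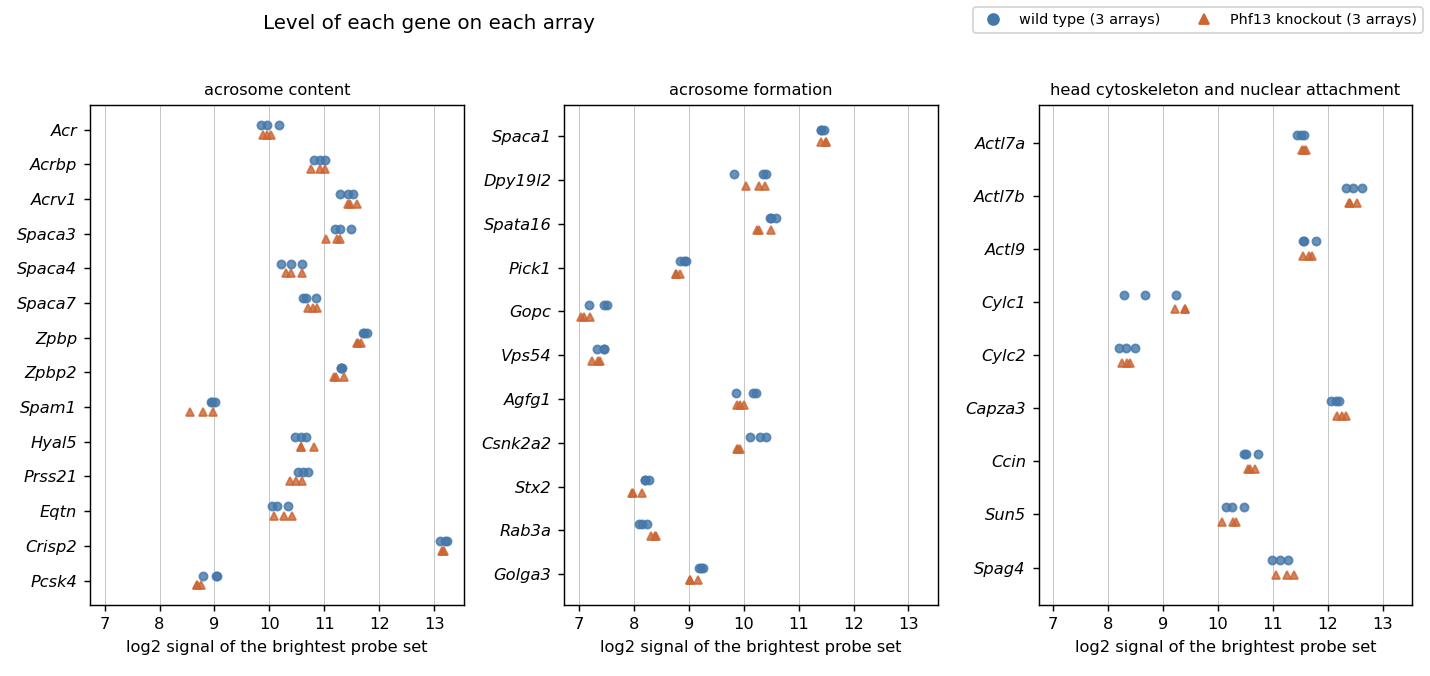
Log2 signal of the brightest probe set of each of the 34 genes on each array, in 3 panels by role. Circles are the 3 wild-type arrays and triangles the 3 knockout arrays; the symbols of most genes intermingle, while Csnk2a2, Golga3, Stx2, Pcsk4 and Zpbp have all triangles to the left of all circles and Rab3a has them to the right.

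Among the genes of proteins packed into the acrosome none passed the threshold, and Acr, Acrv1 and Crisp2 differed little. Equality of the genotypes was not tested. Acr, which encodes the serine protease acrosin, read 9.95, 9.85 and 10.17 in wild type and 9.88, 9.96 and 10.03 in knockout, a difference of -0.03 (SE 0.11). Acrv1, a protein of the acrosomal matrix, read 11.44, 11.28 and 11.53 against 11.46, 11.44 and 11.59, a difference of 0.08 (SE 0.10). The arrays of the genotypes intermingled for both genes. Crisp2, a cysteine-rich secretory protein of the acrosome and the tail, was bright and tight, at 13.17 ± 0.07 and 13.16 ± 0.02 (SD, n = 3 each).

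The zona pellucida binding proteins Zpbp and Zpbp2, paralogs of the acrosomal matrix, also differed little. Zpbp read 11.78, 11.72 and 11.70 in wild type and 11.66, 11.59 and 11.62 in knockout, so the genotypes did not overlap, but the difference was only -0.11 (SE 0.08, limma adjusted p = 0.558). Zpbp2 read 11.32, 11.31 and 11.31 against 11.18, 11.35 and 11.21, with overlap and a difference of -0.07 (SE 0.09). A dim second probe set of Zpbp, at 4.01 in wild type, differed by 0.17, opposite in sign.

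Pcsk4, the proprotein convertase of the acrosomal membrane, was the content gene with the largest difference. It read 9.04, 8.79 and 9.02 in wild type and 8.68, 8.76 and 8.68 in knockout. All knockout arrays lay below all wild-type arrays, by a narrow margin, and the difference of -0.24 (SE 0.10) did not pass (limma adjusted p = 0.302). It was -0.24 inside the first 18S set and -0.30 inside the second.

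The hyaluronidase genes Spam1 and Hyal5, whose products loosen the matrix around the egg, went different ways without passing. Spam1 read 9.01, 8.93 and 8.95 against 8.97, 8.79 and 8.55, and Hyal5 read 10.57, 10.47 and 10.67 against 10.82, 10.58 and 10.57. Their differences were -0.19 (SE 0.12) and 0.09 (SE 0.11), and both had overlapping genotypes; the contrast between them was not tested. The low mean of Spam1 rested on knockout 3 and knockout 2.

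The other content genes, Acrbp, Spaca3, Spaca4, Spaca7, Prss21 and Eqtn, ran from -0.13 to 0.08 at their brightest probe sets, with overlap in each. Acrbp, whose product binds the acrosin precursor, had a pair of probe sets that differed. The brighter differed by -0.02 (SE 0.10), while the other read 10.12, 10.03 and 9.90 in wild type and 9.81, 9.82 and 9.54 in knockout, a difference of -0.29 (SE 0.11, limma adjusted p = 0.281) with no overlap. Spaca3, a lysozyme-like acrosomal protein, differed by -0.13, and its dim second probe set by 0.19. Eqtn, the acrosomal membrane protein equatorin, had probe sets at 0.08, 0.06 and -0.09. Prss21, the membrane-anchored protease testisin, differed by -0.13, and Spaca4 and Spaca7, proteins of the acrosomal membrane and interior, by 0.03 and 0.08. Over the 14 content genes the median was -0.03, with 9 below 0 and 5 above.

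Most acrosome formation genes had slightly lower means in knockout, and none passed the threshold. Of 11 genes 8 had a difference below 0, beside 8858 of all 18193 genes. Of their 32 probe sets 25 lay below 0, beside 22244 of all 45037. Probe sets of the same gene are not independent, and Csnk2a2 alone gave 7 of the 25. The median over the 11 genes was -0.14. The median became -0.08 when all probe sets of a gene were averaged, and it ranged from -0.17 to -0.10 when each array was left out in turn. Taken array by array, the median deviation from the wild-type mean ran from -0.03 to 0.04 in wild type and from -0.20 to -0.06 in knockout. The median difference was -0.17 inside the first 18S set and -0.18 inside the second.

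Csnk2a2 had the largest difference among the formation genes. It encodes a catalytic subunit of the protein kinase CK2, and male mice without it have round-headed sperm. Its brightest probe set read 10.40, 10.30 and 10.11 on the wild-type arrays and 9.94, 9.90 and 9.88 on the knockout arrays. All knockout values lay below all wild-type values. The difference was -0.36 (SE 0.10), a 1.29-fold lower level, with an unadjusted p = 0.00588 and a limma adjusted p = 0.212.

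The array holds 7 probe sets for Csnk2a2, and all 7 had a negative difference. In 5 of them the genotypes did not overlap and the unadjusted limma p was under 0.05. Over all probe sets, 10.7% were lower and 8.62% higher with no overlap, and 8.31% were lower and 6.81% higher at that p. The probe set with the smallest p read 7.68, 7.79 and 7.57 in wild type and 7.35, 7.31 and 7.13 in knockout, a difference of -0.42 (SE 0.10, limma adjusted p = 0.193). The others ran from -0.38 to -0.12, the last at a probe set of 2.63, near the dim end of the array. The 7 probe sets read RNA of the same samples and are not independent of each other. Inside the 18S sets the brightest probe set differed by -0.41 and -0.22. With array weights, 3 of the 7 passed (limma adjusted p from 0.028 to 0.0322), in a fit in which 7.07% of all probe sets passed.

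**Figure D2:**
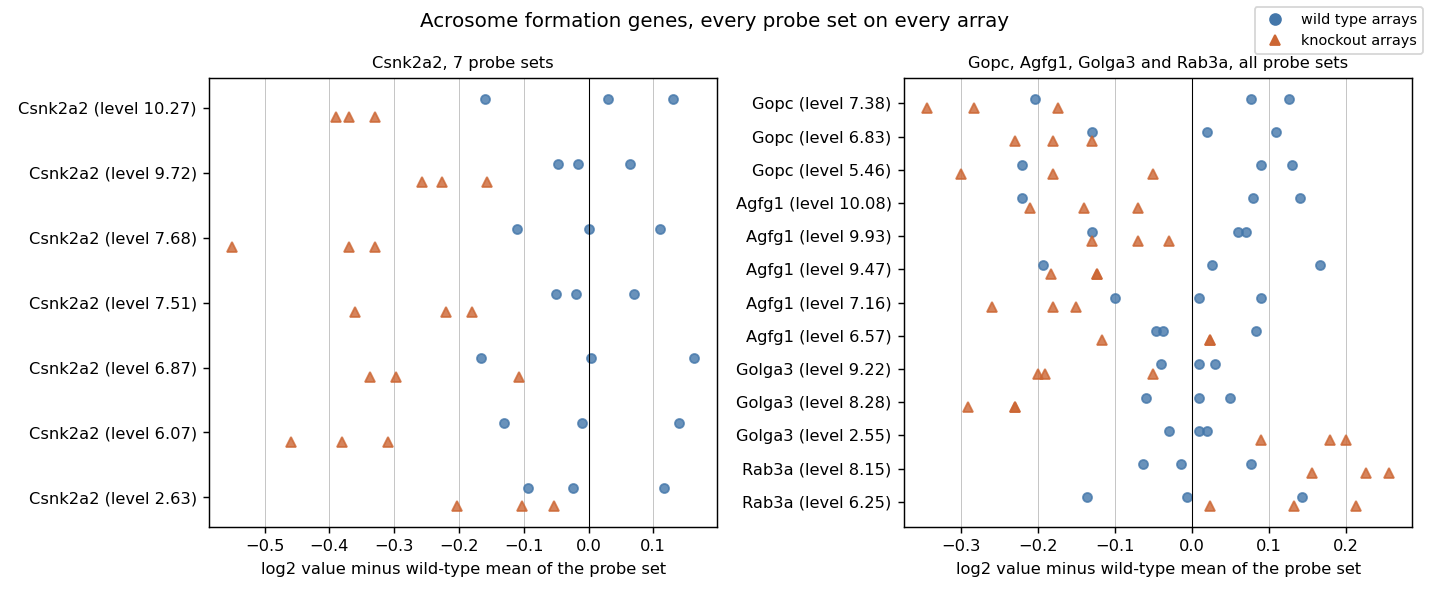
Log2 value minus the wild-type mean for every probe set of Csnk2a2 (left) and of Gopc, Agfg1, Golga3 and Rab3a (right), with the wild-type level of each probe set in its label. Circles are wild-type and triangles knockout arrays; for Csnk2a2 all triangles lie left of the line at 0 in all 7 probe sets, and in 5 they lie left of every circle.

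The promoter window of Csnk2a2 is shown because this gene had the largest negative difference of the 34. Capitals mark its CG dinucleotides. It lies on the minus strand at chr8:95488771-95489070 of GRCm38.p6 (RefSeq) and covers 250 bases before the annotated start and 50 after.

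Csnk2a2: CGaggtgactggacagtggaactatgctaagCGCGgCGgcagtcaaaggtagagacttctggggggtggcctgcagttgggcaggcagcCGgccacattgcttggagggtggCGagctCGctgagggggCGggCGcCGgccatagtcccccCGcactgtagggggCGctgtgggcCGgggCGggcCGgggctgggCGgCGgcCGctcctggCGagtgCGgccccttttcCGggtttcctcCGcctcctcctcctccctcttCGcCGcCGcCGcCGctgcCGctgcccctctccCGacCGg

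It holds 30 CG dinucleotides. Windows were found for 29 of the 34 genes, of which 11 were formation genes with a median of 22, 11 content genes with a median of 7 and 7 head genes with a median of 2, against a median of 7 over all 32851 windows of the table. Where a gene among the 29 had several windows, the window richest in CG was taken, while the median over all windows used every window. This choice can only raise the medians of the 29 genes. CG-rich promoters are common in genes used by many tissues, and CG-poor ones in genes restricted to few.

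The other 10 formation genes had smaller differences. Golga3, a golgin whose loss blocks mouse sperm formation, read 9.18, 9.25 and 9.23 in wild type and 9.03, 9.17 and 9.02 in knockout, with no overlap and a difference of -0.15 (SE 0.09, limma adjusted p = 0.461). Its next probe set read 8.33, 8.29 and 8.22 against 8.05, 7.99 and 8.05, a difference of -0.25 (SE 0.08, limma adjusted p = 0.252). Another, dim at 2.55, went the other way by 0.16, again with no overlap.

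Gopc, a Golgi protein needed for vesicle transport to the acrosome, read 7.18, 7.51 and 7.46 in wild type and 7.10, 7.21 and 7.04 in knockout. The genotypes overlapped through wild type 1, which read low. The difference was -0.27 (SE 0.11, limma adjusted p = 0.314), and its other probe sets differed by -0.18 each. Stx2, a syntaxin of membrane fusion, read 8.21, 8.21 and 8.27 against 7.99, 8.15 and 7.96, with no overlap and a difference of -0.20 (SE 0.09, limma adjusted p = 0.349).

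Spata16, a Golgi protein of spermatids, differed by -0.18 and its other probe set by -0.20, both with overlap. Agfg1, which acts in the fusion of proacrosomal vesicles, had 5 probe sets between -0.20 and -0.02. Pick1, a vesicle trafficking partner of Gopc, differed by -0.11, and its dim second probe set by 0.12. Vps54, a subunit of a complex that returns vesicles to the Golgi, differed by -0.09, with 4 further probe sets between -0.18 and 0.08, of which 3 were below the lower quartile of all probe sets.

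Spaca1, Dpy19l2 and Rab3a were the formation genes with a difference above 0. Spaca1, of the inner acrosomal membrane, read 11.46, 11.41 and 11.41 in wild type and 11.49, 11.41 and 11.50 in knockout, a difference of 0.04 (SE 0.08). Dpy19l2, of the inner nuclear membrane, read 9.83, 10.41 and 10.35 against 10.38, 10.28 and 10.05, a difference of 0.04 (SE 0.16). Wild type 1 alone lay low, and without it the difference was -0.14. Rab3a, a small GTPase of exocytosis, was the formation gene higher in knockout with no overlap. It read 8.23, 8.09 and 8.14 against 8.31, 8.38 and 8.41, a difference of 0.21 (SE 0.09, limma adjusted p = 0.303), and its other probe set differed by 0.12 with overlap.

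Counted by gene, 5 of the 34 lay lower with no overlap between genotypes (Csnk2a2, Golga3, Stx2, Pcsk4 and Zpbp) and 1 higher (Rab3a). The backgrounds over all genes were 13.5% and 9.92%, so 14.7% lower is near the background and 2.94% higher is below it. For the 11 formation genes alone the counts were 3 lower, or 27.3%, and 1 higher. Among these, Stx2 (lower) and Rab3a (higher) are the genes of membrane fusion and exocytosis. The total of 6 became 12 without wild type 1, 11 without wild type 3 and 12 without knockout 2. With 1 array fewer, groups overlap more rarely. The backgrounds above hold for all arrays together and cannot be set beside these larger counts, whose own shares over all genes are not given.

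**Figure D3:**
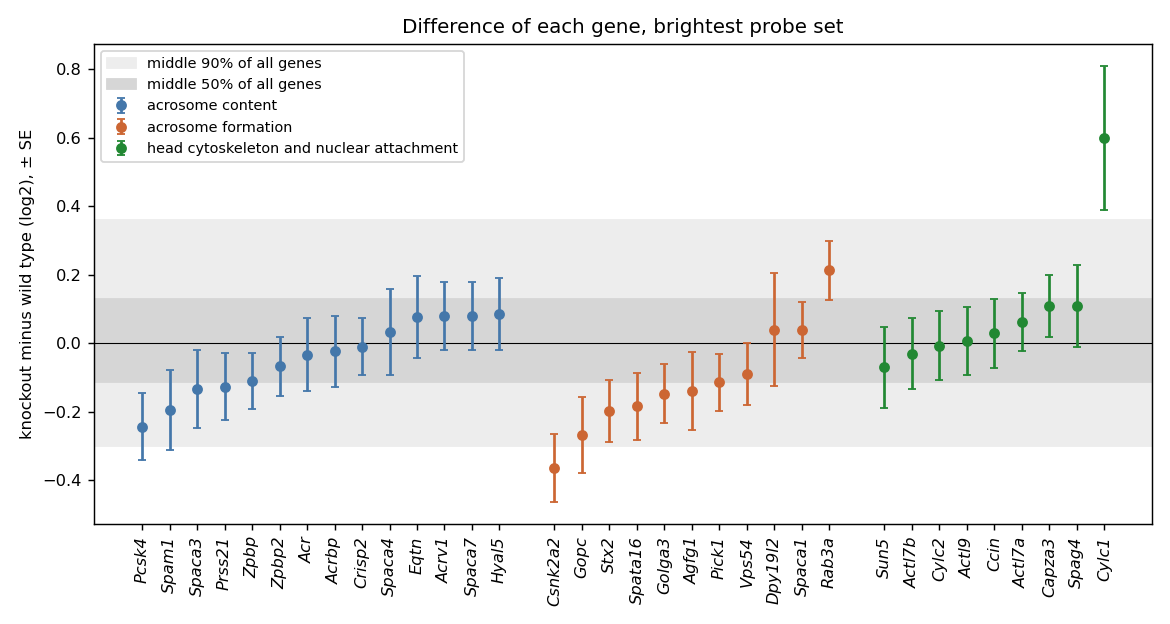
Difference between knockout and wild type on the log2 scale for the brightest probe set of each gene, with the standard error of the limma fit, ordered by size within each role. Grey bands hold the middle 50% (-0.11 to 0.13) and the middle 90% (-0.30 to 0.36) of all genes; 22 of the 34 genes lie in the inner band, and Csnk2a2 and Cylc1 lie outside the outer one.

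Head cytoskeleton genes were bright and, apart from Cylc1, differed by at most 0.11. Actl7a and Actl7b, actin-like proteins of spermatids, read 11.56, 11.43 and 11.51 against 11.56, 11.52 and 11.61, and 12.62, 12.33 and 12.45 against 12.38, 12.40 and 12.53. Their differences were 0.06 (SE 0.09) and -0.03 (SE 0.10). Another actin-like gene, Actl9, differed by 0.01 and 0.04 at its probe sets. Capza3, the testis form of the actin-capping subunit, read 12.06, 12.14 and 12.21 against 12.16, 12.25 and 12.33, a difference of 0.11 (SE 0.09) with overlap.

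Ccin, the calyx protein calicin, differed by 0.03 (SE 0.10). The SUN-domain genes Spag4 and Sun5 differed by 0.11 (SE 0.12) and -0.07 (SE 0.12), with overlap in both. Wild-type values ran from 10.98 to 11.27 for Spag4 and from 10.15 to 10.48 for Sun5. Over the 9 genes the median was 0.03, with 6 above 0, and 0 of 9 had genotypes that did not overlap.

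Cylc1 and Cylc2 encode cylicins, basic proteins of the calyx around the nucleus, and only Cylc1 had a sizeable difference. Cylc1 read 8.29, 8.67 and 9.24 on wild type 1, 2 and 3 and 9.21, 9.39 and 9.40 on knockout 1, 2 and 3. The wild-type arrays were widely spread, and wild type 3 lay just above knockout 1, so the genotypes overlapped. The difference was 0.60 (SE 0.21, unadjusted p = 0.0205, limma adjusted p = 0.262). Inside the 18S sets it was 0.73 and 0.16. Without wild type 3 it was 0.85 and passed (limma adjusted p = 0.0203), in a fit in which 2.61% of all probe sets passed. It passed with array weights too, at 0.69 (limma adjusted p = 0.0384), in a fit in which 7.07% of all probe sets passed. Without wild type 1 it was 0.38 (limma adjusted p = 0.501), and with runs of consecutive title codes as a block 0.32 (limma adjusted p = 0.358). Wild type 1 is a run of its own, so the difference in both of these fits comes from the other arrays only. Cylc2 read 8.20, 8.32 and 8.48 against 8.25, 8.34 and 8.39, a difference of -0.01 (SE 0.10).

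Cylc1 is the only one of the 34 genes on the X chromosome, by the RefSeq table. X-linked genes as a whole lay higher in knockout: the median difference was 0.27 over 617 X-linked genes and 0.00 over 17404 autosomal genes. Knockout arrays lay above all wild-type arrays for 41.8% of X-linked and 8.79% of autosomal genes. Inside the 18S sets the X-linked medians were 0.18 and 0.28. The part of this shift in the value of Cylc1 was not tested.

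**Figure D4:**
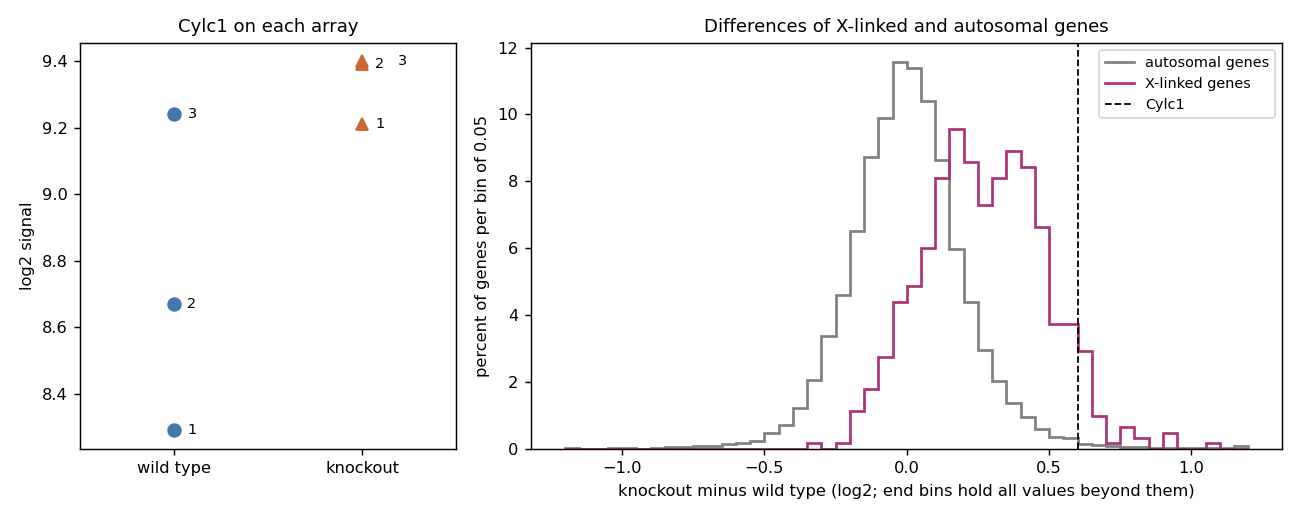
Left, log2 signal of Cylc1 on each array, with replicate numbers beside the symbols; wild type 3 at 9.24 lies above knockout 1 at 9.21. Right, percent of X-linked and of autosomal genes per bin of the log2 difference, knockout minus wild type, with the difference of Cylc1 as a dashed line; the X-linked distribution is centred at 0.27 and the autosomal one at 0.00.

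Promoters of the head genes are shown for Spag4 and Ccin, the only ones of the 29 genes with a window that hold the full cyclic AMP response element TGACGTCA, and for Cylc1. This element is bound by CREM, a transcription factor of round spermatids. In the first pair capitals mark the element, which ends 30 bases before the annotated start of Spag4 and 43 before that of Ccin. The windows lie on the plus strand of GRCm38.p6 (RefSeq) at chr2:156064963-156065262, chr4:43983254-43983553 and chrX:111110168-111110467.

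Spag4: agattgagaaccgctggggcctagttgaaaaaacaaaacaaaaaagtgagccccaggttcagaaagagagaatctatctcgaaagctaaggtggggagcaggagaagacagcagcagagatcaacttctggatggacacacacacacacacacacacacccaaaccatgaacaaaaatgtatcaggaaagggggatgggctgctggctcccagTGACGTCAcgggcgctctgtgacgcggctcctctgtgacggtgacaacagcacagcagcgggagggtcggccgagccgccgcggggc

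Ccin: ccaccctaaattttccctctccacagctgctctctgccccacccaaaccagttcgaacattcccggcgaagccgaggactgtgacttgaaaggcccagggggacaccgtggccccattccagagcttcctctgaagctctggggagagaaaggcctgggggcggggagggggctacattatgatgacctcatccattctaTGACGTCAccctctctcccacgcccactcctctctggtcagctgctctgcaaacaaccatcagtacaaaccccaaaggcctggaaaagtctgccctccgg

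Cylc1: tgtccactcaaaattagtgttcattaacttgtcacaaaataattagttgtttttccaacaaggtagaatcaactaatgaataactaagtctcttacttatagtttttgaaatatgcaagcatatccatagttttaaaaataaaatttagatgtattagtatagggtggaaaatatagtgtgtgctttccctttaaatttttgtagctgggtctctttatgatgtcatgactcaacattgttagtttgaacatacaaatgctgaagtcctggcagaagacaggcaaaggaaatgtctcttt

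The window of Cylc1 holds 0 CG dinucleotides, against 30 in that of Csnk2a2 above, and so has no capitals. Searched on both strands, TGACGTCA is in 1.79% of all 32851 windows and in 2 of the 34 windows of these genes, of which some have several. Its core TGACG, counted also inside the full element, is in 20.81% of all windows and in 12 of the 34. Some windows of a gene overlap, and by gene the core is in 10 of the 29. The core itself holds a CG. The median CG count was 11 for the richest windows of the 29 genes and 7 over all windows. Binding was not measured.

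Other genes of the same processes were read beside the 34. Of 22 further acrosome genes, 0 passed the threshold (1 lower and 1 higher by unadjusted p in limma, 4.55% each, beside 8.72% and 8.58% of all genes) and the median was -0.03, with 14 below 0 and 8 above. Serpina5, a protease inhibitor that acts on acrosin, read 9.08, 8.90 and 8.80 in wild type and 9.44, 9.39 and 9.24 in knockout, a difference of 0.43 (SE 0.11, limma adjusted p = 0.195) with no overlap. Golga2, a golgin of the cis-Golgi, differed by -0.28 (SE 0.11), Vps13b, a Golgi-associated lipid transfer protein, by -0.24 and Zp3r, a matrix protein of the acrosome, by -0.22, each short of the threshold.

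Of 20 genes of the manchette, the microtubule skirt that shapes the nucleus, and of head-tail coupling, 0 passed either (3 lower and 1 higher by unadjusted p in limma, 15% and 5%, beside 8.72% and 8.58% of all genes), with a median of -0.11 and 16 below 0. Genotypes did not overlap for 7 lower and 1 higher, or 35.0% and 5.0%, beside 13.5% and 9.92% of all genes. Actrt1, an actin-related gene of the head that like Cylc1 is X-linked, read 8.43, 8.60 and 8.77 against 9.02, 9.27 and 9.37, a difference of 0.62 (SE 0.13, limma adjusted p = 0.156) with no overlap. The motor gene Kifc1 differed by -0.35 (SE 0.09), the tail and manchette gene Spef2 by -0.28 (SE 0.09) and the centriole gene Cntrob by -0.25 (SE 0.09), all with no overlap and none past the threshold.

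Markers of the cells in the sample were read beside these groups. Round and elongating spermatid markers, from the cells that make the acrosome, had medians of -0.04 over 14 genes and -0.01 over 16. Pachytene spermatocyte markers had a median of -0.19, with 11 of 12 below 0, and Sertoli cell markers a median of 0.40, with 15 of 16 above 0; 0 genes of these 4 lists passed, and at an unadjusted p under 0.05 limma gave 4 spermatocyte genes lower and 10 Sertoli genes higher, 1 round spermatid gene lower and 0 elongating; over all genes 8.72% were lower and 8.58% higher. The mean level of the spermatocyte list ran from 10.87 to 10.92 in wild type and from 10.70 to 10.77 in knockout, and that of the Sertoli list from 8.49 to 8.53 and from 8.78 to 8.92. Aurkc, a kinase of meiosis, differed by -0.42 and Cst12, a cystatin of Sertoli cells, by 0.58. Rhox5 and Gata1 of the Sertoli list are X-linked, and differed by 0.42 and 0.47. Leydig cell markers had a median of 0.16 (8 of 8 above 0), leukocyte markers 0.22 (11 of 13) and myoid and stroma markers 0.39 (10 of 11), again with 0 past the threshold. Inside the first and second 18S sets these medians were -0.03 and 0.17, -0.21 and 0.30, and -0.04 and 0.58, so none was above 0 in the first set. With each array left out in turn they ran from 0.10 (without knockout 2) to 0.32, from 0.11 (without knockout 3) to 0.47 and from 0.11 (without wild type 3) to 0.52, each highest without knockout 1. The spermatocyte medians were -0.13 and -0.19 and the Sertoli medians 0.31 and 0.37 inside these sets. The part of these lists in the values of the formation genes was not tested.

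**Figure D5:**
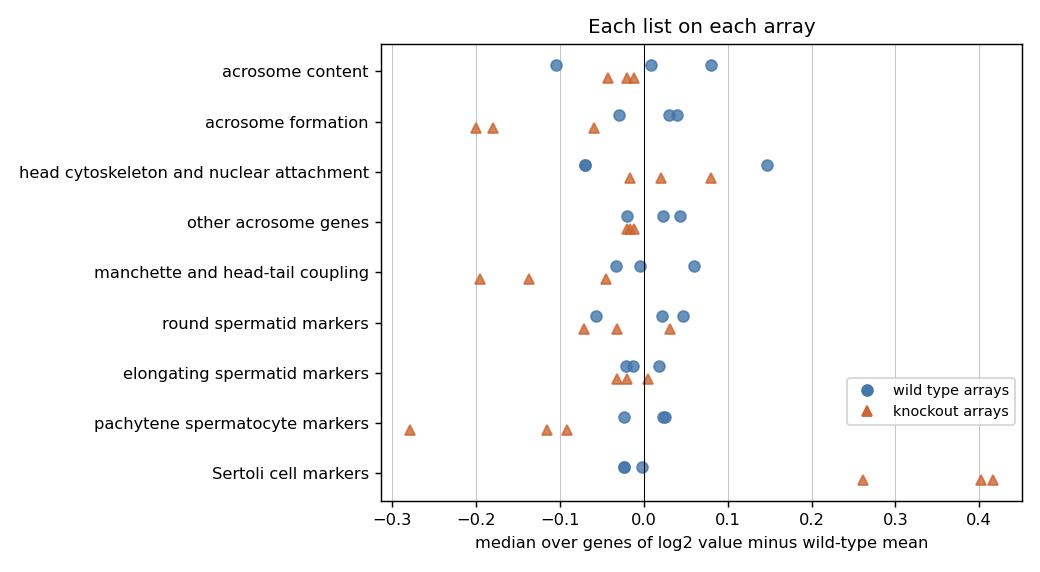
Median over the genes of each list of the log2 value minus the gene's wild-type mean, on each array, for the 3 roles, 2 lists of related genes and 4 lists of cell markers. Circles are wild-type and triangles knockout arrays; the content, head and spermatid lists intermingle, the formation, manchette and spermatocyte triangles lie left of the circles, and the Sertoli triangles lie right, from 0.26 to 0.42.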

How the data were processed

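Total RNA of whole testis, 2 ug per array, was labelled and hybridised, per the labels' protocols. The deposited values are log2 signals, 1 per probe set, that the authors obtained from Expression Console 1.4.1 (Affymetrix), as listed in the submitters' processing notes; summarization, normalization and genome build were not given in the sources used here. Values of 1.42 to 14.01 fit a log2 scale. Of 45101 probe sets, 64 controls were left out and 45037 were tested with no filter. The platform annotation gave 1 symbol to 34945 probe sets, several to 932 and none to 9160, and only the first kind was named. All 34 symbols were found unaltered in RefSeq's gene table of GRCm38.p6.

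lmFit and eBayes of limma 3.58.1 (R 4.3.3) were run on genotype over all probe sets, as a two-sided test. Adjustment was by Benjamini-Hochberg over all of them, with 0.05 as the threshold, and adjusted p-values are limma's throughout. The brightest probe set over the 6 arrays stands for a gene; others are given where they differ in sign or by more than 0.3, and a few more beside the result they bear on. At most 4 genes per list of related genes or markers were named, those with the smallest p, apart from the X-linked genes Rhox5 and Gata1. The genes, lists and fits were chosen with earlier results of these data known. As separate animals are not named, the p-values measure only spread among these arrays, which may be technical, and their number limits the precision. No array repeated another (smallest root mean square difference 0.17).

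On simulated data for this comparison with 45037 probe sets, 0% of planted log2 changes of 0.25, 2% of 0.5, 64% of 1 and 96% of 2 were recovered, and 2 of 44837 unchanged probe sets were called. Most differences reported here are of a size that this design did not recover. Motifs were searched in 300-base promoter windows with Python 3.11.15.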

Additional observations from a re-analysis of the deposited data

How the results depend on the processing

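Of the 62 probe sets, 0 passed, and 0 of those tested passed under the alternatives, except with array weights, where 4 did, and without wild type 3, where 1 did (range 0 to 1 when each array was left out). Over all probe sets, 7.07% passed with array weights and 2.61% without wild type 3. Over 15 alternatives, 20 of 34 genes kept their sign throughout, 11 of them lower and 9 higher; the other 14 changed sign in at least 1. The alternatives are not independent: the fit without wild type 1 and that with title code runs as a block rest on the same arrays. Csnk2a2 ran from -0.44 to -0.28 and Cylc1 from 0.32 to 0.85. The median of the formation genes was -0.08 when probe sets were averaged by gene, and -0.17 to -0.10 with each array left out; that of all 34 genes was then -0.07 to 0.02, of the content genes -0.07 to 0.02 and of the head genes 0 to 0.08. The count of genes with no overlap was 6 to 12 with each array left out, where groups overlap more rarely. The shares over all genes in these settings are not given.

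The count over all probe sets, 45, was 28 with the replicate block, 16 with runs of consecutive title codes as a block, 79 among probe sets above the median level, 110 with an intensity trend and robust moderation, 3186 with array weights and 12 to 1176 with each array left out (1176 without wild type 3). A block for the 18S sets, added after seeing the data, gave 43 and 0 of the member probe sets. The labels do not say that equal replicate numbers are pairs, so the numbers were not taken as pairs. Arrays of equal number correlated in their deviations from the group means at 0.258, 0.066 and 0.118, and those of unequal number at -0.199 to 0.128. Knockout 1 and knockout 3 correlated best with the wild-type array of their own number, while knockout 2 correlated with wild type 3 better than with wild type 2. Why these counts move was not tested.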

Other observations

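Of 15 measured genes of the exocytosis machinery that releases the acrosome, 0 passed in limma, and the median was 0.01. At an unadjusted p under 0.05 limma gave 1 lower (Dnm2, 6.67%) and 1 higher (Stx1a), beside 8.72% and 8.58% of all genes. Genotypes did not overlap for 2 lower and 3 higher, or 13.3% and 20%, beside 13.5% and 9.92% of all genes. Stx1a, a syntaxin best known from synapses, read 6.64, 6.67 and 6.83 in wild type and 6.90, 7.37 and 7.41 in knockout, a difference of 0.51 (SE 0.14, limma adjusted p = 0.215) with no overlap, whereas its relative Stx2 differed by -0.20. The dynamin genes Dnm2 and Dnm1, which cut vesicles from membranes, differed by -0.33 (SE 0.09) and -0.24 (SE 0.11), the first with no overlap. The complexin gene Cplx2 differed by 0.20 (SE 0.09), with no overlap. Among round spermatid markers, the transcription factor gene Sox30 read 7.34, 7.58 and 7.32 against 7.14, 7.04 and 6.92, a difference of -0.38 (SE 0.11, limma adjusted p = 0.217) with no overlap. Of the 14 measured markers of that list, 14.3% lay lower with no overlap, beside 13.5% of all genes.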
